A study of Mus musculus with 54 samples.

Results

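The Slco genes encode organic anion transporting polypeptides, carriers that take bile acids, bilirubin, thyroid hormones, steroid conjugates, prostaglandins and many drugs from blood or tissue fluid into cells. In mouse liver Slco1a1, Slco1a4 and Slco1b2 sit on the sinusoidal membrane of hepatocytes. Slco1a1 is known there as a male-predominant gene that needs androgen and pulsatile growth hormone, and Slco1a4 as a female-predominant gene that is induced through the xenobiotic receptor PXR. Slco1b2 is the main liver carrier for unconjugated bile acids and many drugs, Slco2b1 carries steroid sulfates and related anions, and Slco2a1 is the prostaglandin transporter.

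The 5 genes Slco1a1, Slco1a4, Slco1b2, Slco2a1 and Slco2b1 were selected by symbol from the 13815 genes with deposited liver RNA-seq values, and all 5 were present. The selection used expression values of these libraries, in which Slco1a1 and Slco1a4 had been seen to move apart. Values of these 2 genes are therefore described without a test, and tests are given for the other 3 members. A pair of further Slco genes, Slco1a5 and Slco3a1, was also in the table.

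Mouse livers were compared after hepatocyte loss of folliculin (Flcn), a regulator of the nutrient kinase mTORC1 that restrains the transcription factor TFE3. Every mouse carried Flcn lox/lox alleles, Controls included. AMLN DKO mice also carried the whole-body Tfe3 -/Y deletion and received AAV8-TBG-Cre; LiFKO mice received AAV8-TBG-Cre; Control mice received AAV8-TBG-GFP. The TBG promoter restricts Cre and GFP to hepatocytes, so other liver cells kept Flcn. RNA came from livers after 17 to 18.5 weeks of AMLN diet, which is used to induce fatty liver disease, or of normal chow, and a fast of 4 to 6 h. The 5 groups of 3 libraries were AMLN DKO, AMLN LiFKO, AMLN Control, chow LiFKO and chow Control. There was no chow DKO group and no RNA from mice lacking Tfe3 alone, and because DKO mice were bred as their own line, effects of line and of genotype cannot be told apart. Age and the sex of the Flcn lox/lox mice were not given in the sources used here, nor whether libraries of a group were separate mice. P-values therefore measure the spread between libraries, which may be technical. TFE3 ChIP-seq peak lists came from ad lib fed mice on chow or after 9 days of FPC diet, with or without an AAV8 expressing HA-nSREBP-1c, a tagged active form of the lipogenic factor SREBP-1c ("+1c").

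Expression is given on the authors' quantile-normalized log2 scale, and differences are log2 differences with the moderated SE of limma. These values are not per gene length, so levels are compared within a gene and not between genes. Flcn averaged 10.41 ± 0.23 in chow LiFKO and 11.44 ± 0.11 in chow Control (SD, n = 3 each), and 9.49 ± 0.40 in AMLN DKO, 10.42 ± 0.16 in AMLN LiFKO and 10.98 ± 0.07 in AMLN Control. Tfe3 averaged 9.99 ± 0.18 in the libraries labelled AMLN DKO, 10 ± 0.08 in AMLN LiFKO and 10.24 ± 0.05 in AMLN Control. This value counts reads over the gene and so is no check of the deletion. Lysosomal genes, textbook TFE3 targets, were called higher for 20 of 24 in chow LiFKO and lower for 19 of 24 in AMLN DKO against AMLN LiFKO. Over all genes 25.7% and 11.0% were called in either direction in these comparisons. Hepatocyte marker genes had summed log2 levels of 22.24 to 22.25 in AMLN DKO, 21.76 to 21.83 in AMLN LiFKO and 22.23 to 22.35 in AMLN Control. On chow these sums were 21.48 to 21.91 in LiFKO and 22.28 to 22.35 in Control. The LiFKO sums lay below Control on both diets without overlap, but a sum is weighted to genes of high level such as Alb. Quantile normalization gave all libraries the same highest value, and Alb averaged that value in Control on both diets and in AMLN DKO. Alb could not read higher there, so the size of its LiFKO difference, and of the difference in sums, is uncertain. Mean log2 levels of the same 10 markers overlapped on both diets. They were 17.65 to 18.04 in chow LiFKO and 17.97 to 18.15 in chow Control. On AMLN diet they were 17.59 to 17.79 in LiFKO and 17.63 to 18 in Control. Of the 10 markers 2 fell and 0 rose in chow LiFKO (Alb, -1.0 ± 0.28, and Serpina1a, -0.59 ± 0.20), beside 25.7% of all genes called. In AMLN LiFKO 0 passed, beside 19.7% of all genes. In AMLN Control against chow Control 4 fell and 1 rose, beside 22.8% of all genes (limma). Their part in the Slco values was not tested. AMLN Control replicate 3 lay apart from the rest of its group on the second principal component, at -11.4 against -37 and -31.9. The AMLN DKO libraries were spread along it, at -30, -18.2 and -2.1 in replicates 1, 2 and 3.

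Promoter sequences are shown for Slco1a1 and Slco1a4, which differed from Control in opposite directions in chow LiFKO. Both of these genes were lower in AMLN Control than in chow Control. Sequences are also shown for Slco1b2 and Slco2a1, whose starts lie under a TFE3 peak described further on. Each runs from 250 bases before to 50 bases after the RefSeq start in build GRCm38.p6, 5′ to 3′ on the gene's own strand. Capitals mark the E-box core CANNTG, the letters that TFE3 and its relatives recognise in their stricter form CACGTG.
Slco1a1 (chr6:141946913-141947212, minus strand): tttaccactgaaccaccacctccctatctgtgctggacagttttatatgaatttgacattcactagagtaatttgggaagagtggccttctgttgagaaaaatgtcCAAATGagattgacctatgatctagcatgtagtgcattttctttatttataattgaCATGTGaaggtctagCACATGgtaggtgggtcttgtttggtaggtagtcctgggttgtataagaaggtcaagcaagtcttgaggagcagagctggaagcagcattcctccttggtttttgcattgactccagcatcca
Slco1a4 (chr6:141856171-141856470, minus strand): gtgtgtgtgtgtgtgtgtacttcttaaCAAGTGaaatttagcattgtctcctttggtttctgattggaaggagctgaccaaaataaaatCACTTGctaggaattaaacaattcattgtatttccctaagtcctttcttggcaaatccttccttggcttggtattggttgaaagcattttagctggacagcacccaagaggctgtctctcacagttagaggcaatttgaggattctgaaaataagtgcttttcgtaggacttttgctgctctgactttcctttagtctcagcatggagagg
Slco1b2 (chr6:141629268-141629567, plus strand): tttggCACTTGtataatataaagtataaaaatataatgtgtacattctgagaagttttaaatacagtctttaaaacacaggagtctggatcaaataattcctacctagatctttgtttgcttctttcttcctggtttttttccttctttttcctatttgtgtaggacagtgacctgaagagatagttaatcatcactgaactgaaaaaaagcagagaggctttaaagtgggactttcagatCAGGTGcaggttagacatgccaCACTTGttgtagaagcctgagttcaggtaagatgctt
Slco2a1 (chr9:103008237-103008536, plus strand): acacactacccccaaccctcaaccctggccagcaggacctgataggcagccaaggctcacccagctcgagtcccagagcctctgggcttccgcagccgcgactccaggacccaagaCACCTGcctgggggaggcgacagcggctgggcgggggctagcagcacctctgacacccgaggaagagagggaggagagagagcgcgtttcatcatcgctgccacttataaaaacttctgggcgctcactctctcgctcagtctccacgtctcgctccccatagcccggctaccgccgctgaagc

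All 5 members had a promoter in the RefSeq table, 7 in all, because Slco2b1 had 3. On both strands 0 of the 7 held CACGTG, which 7.15% of all 32851 promoters of the table hold. The longer TFE3-family form TCACGTG, which contains it, and the variant form TCATGTG were also in 0 of the 7, and each is in 3.77% of all promoters. CANNTG, which contains CACGTG, was in 6 of the 7 promoters and in 72.3% of all promoters. Among the 12386 promoters matched to genes of the expression table, 9.83% hold CACGTG, 5.89% TCACGTG, 2.18% TCATGTG and 64.0% CANNTG. In Slco1a1 the 3 matches begin at -144, -88 and -73 from the start, and in Slco1a4 the 2 matches begin at -223 and -161.

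Slco1a1 had its highest level in chow Control liver and was lower and far more variable everywhere else. Its log2 values were 11.71, 13.50 and 13.63 in AMLN DKO, 11.88, 12.64 and 10.46 in AMLN LiFKO, 10.65, 9.87 and 13.82 in AMLN Control, 12.10, 9.45 and 11.70 in chow LiFKO, and 14.60, 14.54 and 14.54 in chow Control. The chow Control libraries lay within 0.06 of each other and above all 12 other libraries, which overlapped between their groups. The chow LiFKO mean was 11.09 ± 1.43 and the chow Control mean 14.56 ± 0.03 (SD, n = 3 each), a difference of -3.47 ± 0.91 (SE), or 0.0901 of the Control level. Leaving out 1 library at a time gave -3.98 to -2.66, the smallest without chow LiFKO replicate 2. Every chow LiFKO library was below every chow Control library, as for 23.3% of all genes.

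AMLN diet in Control mice went with a difference of similar size in Slco1a1, -3.11 ± 0.91 against the same 3 chow Control libraries, with every AMLN Control library below (21.8% of all genes). On AMLN diet LiFKO and Control libraries overlapped, with a difference of 0.21 ± 0.91, and the difference between the LiFKO effects on AMLN diet and on chow was 3.68 ± 1.28 (2.87 without chow LiFKO replicate 2, 4.87 without AMLN Control replicate 3). AMLN DKO averaged 12.94 ± 1.07, which was 1.29 ± 0.91 above AMLN LiFKO and 1.5 ± 0.91 above AMLN Control, with overlapping libraries in both comparisons. The DKO minus LiFKO difference was 0.68 without AMLN LiFKO replicate 3 and 1.90 without AMLN DKO replicate 1, and the DKO minus Control difference was 0.71 without AMLN Control replicate 2 and 2.68 without AMLN Control replicate 3. AMLN Control replicate 3, the library that lay apart from its group, had 13.82 in Slco1a1; without it, the AMLN LiFKO minus Control difference was 1.40 and the diet difference in Control was -4.30, against -2.32 without AMLN Control replicate 2. The part of these libraries was not tested further. The LiFKO minus Control difference on AMLN diet was below 0 without AMLN Control replicate 1 (-0.19), AMLN Control replicate 2 (-0.58) or AMLN LiFKO replicate 2 (-0.28). Between diets LiFKO mice had a Slco1a1 difference of 0.57 ± 0.91 with overlapping libraries, and of -0.24 without chow LiFKO replicate 2. The replicate SD of Slco1a1 was 1.07 to 2.09 in the groups other than chow Control, larger than that of 98.4% to 99.9% of genes in the same group, against 4.2% of genes in chow Control.

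Slco1a4, its neighbour on the chromosome, went the other way in chow LiFKO. Its log2 values were 12.09, 13.20 and 13.46 in AMLN DKO, 13.53, 13.12 and 13.33 in AMLN LiFKO, 10.17, 10.44 and 10.66 in AMLN Control, 12.92, 13.45 and 13.05 in chow LiFKO, and 12.17, 12.22 and 12.18 in chow Control. The AMLN Control libraries were the lowest of the 15, and both LiFKO groups lay above both Control groups without overlap. The LiFKO minus Control difference was 0.95 ± 0.26 on chow, 1.93 times the Control level, where 18.5% of all genes had every LiFKO library above. It was 2.90 ± 0.26 on AMLN diet, 7.48 times the Control level, where 17.2% of all genes had every LiFKO library above. These 2 effects differed by 1.95 ± 0.37.

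AMLN diet in Control mice went with a Slco1a4 level lower by -1.77 ± 0.26 on the log2 scale, 0.294 of the chow level, while in LiFKO mice the diet groups overlapped with a difference of 0.19 ± 0.26. AMLN DKO libraries overlapped AMLN LiFKO, at -0.41 ± 0.26, and all 3 were above AMLN Control, at 2.49 ± 0.26 (8.66% of all genes had every DKO library above). AMLN DKO replicate 1, at 12.09, set most of the DKO spread; without it the DKO minus LiFKO difference was 0.00. In order of mean level AMLN LiFKO was highest, then chow LiFKO and AMLN DKO, and libraries of these 3 groups overlapped; next came chow Control, which fell within the DKO range, and AMLN Control last.

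**Figure D1:**
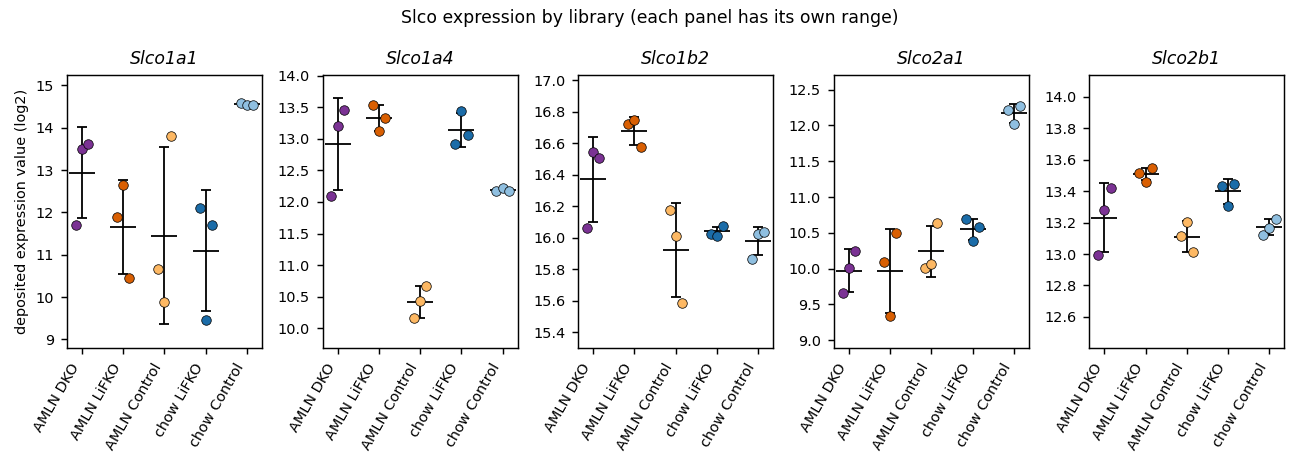
Deposited log2 expression of the 5 Slco genes (y axis, own range per gene) in AMLN DKO, AMLN LiFKO, AMLN Control, chow LiFKO and chow Control livers (x axis); points are libraries and bars are means ± SD of 3. Slco1a1 and Slco2a1 stood highest in chow Control, and Slco1a4 lowest in AMLN Control.

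In chow LiFKO liver replicate 2 had the lowest Slco1a1 value of the 15 libraries, 9.45, and a Slco1a4 value of 13.45, the highest of its group. In AMLN Control liver both genes were low in replicates 1 and 2, and replicate 3 had high Slco1a1 with low Slco1a4, 10.66. The genes of the Slco1a subfamily resemble each other, and how reads matching several of them were counted is not given in the sources used here, so their separate values carry that uncertainty.

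**Figure D2:**
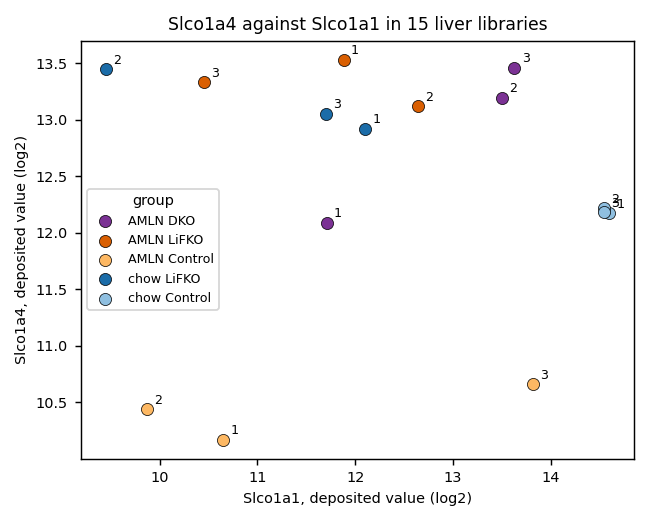
Slco1a4 (y axis, deposited log2 value) against Slco1a1 (x axis, deposited log2 value) in 15 liver libraries coloured by group and numbered by replicate. The 3 chow Control libraries sit together at high Slco1a1, the 3 AMLN Control libraries at the bottom with Slco1a4 of 10.17 to 10.66, and both LiFKO groups at the top.

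Slco1b2, the bile acid and drug carrier of hepatocytes, was higher in LiFKO than in Control on AMLN diet. Its log2 values were 16.06, 16.54 and 16.51 in AMLN DKO, 16.72, 16.75 and 16.58 in AMLN LiFKO, 16.18, 16.01 and 15.59 in AMLN Control, 16.02, 16.01 and 16.07 in chow LiFKO, and 15.87, 16.02 and 16.03 in chow Control. Among its 15 values 13 were distinct, since quantile normalization can give libraries an identical value. The 3 AMLN LiFKO libraries were the highest of the 15, and the other groups lay close together with AMLN DKO reaching above the rest. On AMLN diet 17.2% of all genes had every LiFKO library above every Control library. The AMLN LiFKO mean was 16.68 ± 0.09 and the AMLN Control mean 15.92 ± 0.30 (SD, n = 3 each), so Slco1b2 rose by 0.76 ± 0.15 (SE; limma adjusted p = 0.00267), 1.69 times the Control level.

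On chow the LiFKO minus Control difference of Slco1b2 was 0.06 ± 0.15 (95% interval -0.26 to 0.39; limma adjusted p = 0.817). AMLN against chow in Control mice gave -0.05 ± 0.15 (limma adjusted p = 0.835), and 0.12 without AMLN Control replicate 3. The test of the difference between the 2 LiFKO effects gave 0.70 ± 0.21 (limma adjusted p = 0.129), which did not pass. Within LiFKO mice AMLN diet raised Slco1b2 by 0.65 ± 0.15 (limma adjusted p = 0.0316), with all 3 libraries above (12.2% of all genes). That call was lost when any single library of these 2 groups was left out, with differences of 0.61 to 0.70 and adjusted p of 0.0547 to 0.0978. AMLN DKO averaged 16.37 ± 0.27, -0.31 ± 0.15 against AMLN LiFKO (limma adjusted p = 0.217) with every DKO library below, as for 13.5% of all genes, and 0.45 ± 0.15 against AMLN Control (limma adjusted p = 0.206).

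Slco2b1 was also higher in LiFKO than in Control on AMLN diet, by a smaller amount. Its log2 values were 13.00, 13.28 and 13.42 in AMLN DKO, 13.51, 13.46 and 13.55 in AMLN LiFKO, 13.11, 13.20 and 13.01 in AMLN Control, 13.43, 13.31 and 13.45 in chow LiFKO, and 13.12, 13.16 and 13.22 in chow Control. All LiFKO libraries exceeded all Control libraries of their diet, by gaps of 0.09 on chow and 0.26 on AMLN diet. This held for 18.5% of all genes on chow and 17.2% on AMLN diet. Slco2b1 rose by 0.40 ± 0.10 in AMLN LiFKO against AMLN Control (limma adjusted p = 0.00883), 1.32 times the Control level. The chow difference was 0.23 ± 0.10 (95% interval 0.02 to 0.43; limma adjusted p = 0.0992, or 0.0386 without AMLN DKO replicate 1), and the 2 LiFKO effects differed by 0.17 ± 0.13 (limma adjusted p = 0.585). AMLN DKO libraries were all below AMLN LiFKO, by a gap of 0.04, as for 13.5% of all genes. The difference was -0.27 ± 0.10 (limma adjusted p = 0.0835, or 0.0292 without DKO replicate 3). AMLN DKO overlapped AMLN Control, at 0.12 ± 0.10 (limma adjusted p = 0.622).

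Slco2a1, which carries prostaglandins into cells for breakdown, was lower in every group than in chow Control. Its log2 values were 9.66, 10.01 and 10.25 in AMLN DKO, 10.09, 9.33 and 10.50 in AMLN LiFKO, 10.01, 10.07 and 10.64 in AMLN Control, 10.69, 10.39 and 10.58 in chow LiFKO, and 12.22, 12.02 and 12.27 in chow Control. The chow Control libraries stood 1.33 or more above all others, and the other 4 groups overlapped with their neighbours. Every chow LiFKO library was below chow Control for 23.3% of all genes, and every AMLN Control library for 21.8%. Slco2a1 fell by 1.61 ± 0.25 on the log2 scale in chow LiFKO against chow Control (limma adjusted p = 0.000249), to 0.327 of the Control level. It fell by 1.93 ± 0.25 in AMLN Control against the same chow Control libraries (limma adjusted p = 0.000255), to 0.263 of the chow level.

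On AMLN diet the LiFKO minus Control difference of Slco2a1 was -0.27 ± 0.25 (95% interval -0.79 to 0.26; limma adjusted p = 0.502), and 0.06 without AMLN LiFKO replicate 2. The 2 LiFKO effects differed by 1.35 ± 0.35 (limma adjusted p = 0.0762), and this passed the threshold without AMLN Control replicate 3 (1.55, adjusted p = 0.0321), without AMLN LiFKO replicate 2 (1.67, adjusted p = 0.0259) and with replicate number as a block (adjusted p = 0.0401). AMLN diet in LiFKO mice gave -0.58 ± 0.25 (limma adjusted p = 0.193), and AMLN DKO overlapped both other AMLN groups and averaged 9.97 ± 0.30, against 9.97 ± 0.59 in AMLN LiFKO and 10.24 ± 0.35 in AMLN Control. Slco2a1 is also expressed by endothelial cells, and in bulk liver fewer cells of a type and less RNA per cell cannot be told apart. Of 16 endothelial markers 2 were called higher and 0 lower in chow LiFKO (Stab2 by 1.02 ± 0.13, Lyve1 by 1.33 ± 0.27), beside 25.7% of all genes called. Their summed log2 levels were 15.08 to 15.24 in chow LiFKO and 14.92 to 15.23 in chow Control. In AMLN Control against chow Control, Lyve1 rose by 1.09 ± 0.27 and Ptprb fell by 0.33 ± 0.09, with a summed level of 14.91 to 15.07 in AMLN Control. Markers of other cells also moved with diet in Control mice, where 22.8% of all genes were called in either direction. Of 11 stellate and fibrosis markers 7 rose and 0 fell, among them the collagen gene Col1a1 by 2.31 ± 0.44 (limma adjusted p = 0.00281), with summed levels of 14.37 to 14.89 in AMLN Control and 13.81 to 14.37 in chow Control. Of 15 macrophage markers 4 rose and 1 fell, with summed levels of 15.34 to 15.55 in AMLN Control and 14.60 to 15.58 in chow Control. The part of these cells in the Slco2a1 difference was not tested.

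Among the 3 tested members 1 was called in chow LiFKO against chow Control (Slco2a1, lower), where 13.2% of all genes were called lower and 25.7% in either direction. In AMLN LiFKO against AMLN Control 2 were called, both higher (10.1% of all genes were called higher and 19.7% in either direction). AMLN against chow called 1 member in Control (Slco2a1, lower; 11.6% of all genes called lower, 22.8% in either direction) and 1 in LiFKO (Slco1b2, higher; 1.58% of all genes called higher, 3.74% in either direction). None was called in DKO against LiFKO (11.0% of all genes), DKO against Control (0.651%) or the difference between LiFKO effects (1.04%). At an unadjusted limma p under 0.05 those 3 comparisons held 1, 1 and 2 members.

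**Figure D3:**
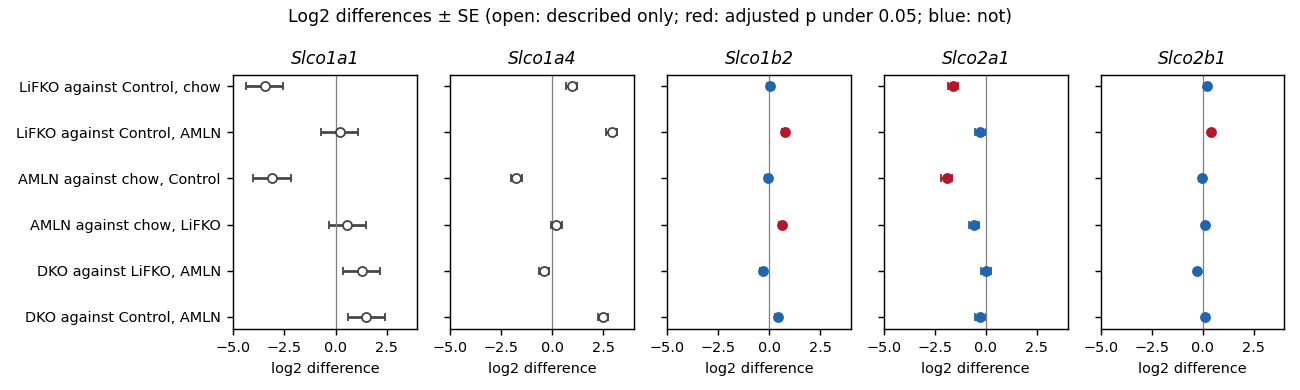
Log2 differences ± SE (x axis) of the 5 Slco genes in 6 comparisons (y axis) from the limma fit over 15 libraries; open points are described without a test, red points had adjusted p under 0.05 and blue points did not. Slco1a4 had its largest difference, 2.90, in LiFKO against Control on AMLN diet, and Slco2a1 its largest, -1.93, in AMLN against chow Control.

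Of the other Slco genes, Slco1a5, a further carrier of the same subfamily, fell by 3.31 ± 0.80 in AMLN Control against chow Control (limma adjusted p = 0.00978), with 4.64, 3.14 and 2.32 as the highest, median and lowest AMLN Control values, against 7.04, 6.72 and 6.29 in chow Control. These AMLN Control values are near the bottom of the table. Slco3a1, a widely expressed member of the family, averaged 7.67 ± 0.22 in AMLN LiFKO and 8.17 ± 0.25 in AMLN Control, -0.51 ± 0.22 (limma adjusted p = 0.126), and passed no comparison.

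Of 9 measured uptake carriers of other families 3 fell and 1 rose in chow LiFKO, where 25.7% of all genes were called in either direction: Slc22a7, an organic anion carrier, at -2.45 ± 0.51 (adjusted p = 0.00281), Slc22a30 at -1.81 ± 0.16, Slc29a1, a nucleoside carrier, at -0.53, and Slc16a1, a lactate carrier, at 0.90 ± 0.19 (limma). Their median difference was -0.31 beside -0.05 over all genes. In AMLN LiFKO 3 of 9 fell and 0 rose, where 19.7% of all genes were called in either direction. Slc22a30 was at -1.12 ± 0.16 and Slc22a3 at -1.77 ± 0.39. Slc10a1, the sodium-dependent bile acid carrier, averaged 14.32 in chow LiFKO and 14.08 in chow Control.

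Export pumps moved in both directions. In chow LiFKO 4 of 12 rose and 1 fell, where 25.7% of all genes were called in either direction. In AMLN LiFKO again 4 rose and 1 fell, where 10.1% of all genes were called higher and 19.7% in either direction. Abcb11, the canalicular bile salt export pump, fell, with -1.05 ± 0.15 on chow (limma adjusted p = 0.000194) and -0.75 ± 0.15 on AMLN diet (adjusted p = 0.00329). Abcg2, which exports sulfated conjugates and drugs, rose by 1.22 ± 0.10 on chow (adjusted p = 1.16e-06) and by 0.46 ± 0.10 on AMLN diet (adjusted p = 0.00439). Abcg5 and Abcg8, which form the sterol exporter, rose by 0.63 ± 0.13 and 0.48 ± 0.13 in AMLN LiFKO. The median over the 12 pumps was 0.34 on chow and 0.41 on AMLN diet, beside -0.05 and -0.02 over all genes.

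Of 11 bile acid enzymes 6 fell and 1 rose in chow LiFKO, where 13.2% of all genes were called lower, and 4 fell and 0 rose in AMLN LiFKO, where 19.7% were called in either direction. Their median difference was -0.65 on chow and -0.41 on AMLN diet, beside -0.05 and -0.02 over all genes. Among those that fell in chow LiFKO were Cyp7a1, the rate-limiting enzyme of bile acid synthesis, at -2.22 ± 0.44 (limma adjusted p = 0.00198), Cyp27a1, which starts the acidic pathway, at -1.02 ± 0.12, and Cyp2c70, which makes muricholic acids in mice, at -1.83 ± 0.39. Cyp8b1, the sterol hydroxylase of cholic acid synthesis, rose by 0.95 ± 0.32 there.

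Nuclear receptors and hepatocyte transcription factors include known regulators of Slco genes. Of 14 measured, 3 fell and 1 rose in chow LiFKO, a share near the 25.7% called over all genes: Nr1h4, the bile acid receptor FXR, at -0.58 ± 0.10, Nr5a2 at -0.61 ± 0.11, Nr1i3, the xenobiotic receptor CAR, at -0.76 ± 0.17, and Ppara, a fatty acid receptor, at 0.48 ± 0.12. In AMLN LiFKO 2 of the 14 rose and 0 fell, a share below the 19.7% of all genes called in either direction. These were Ppara, by 0.49 ± 0.12, and Nr1i2, which encodes PXR, by 0.55 ± 0.15 (limma adjusted p = 0.0167). Of 15 measured PXR and CAR target genes 2 rose and 6 fell in chow LiFKO, beside 25.7% of all genes called in either direction. In AMLN LiFKO 1 rose and 6 fell, beside 19.7% of all genes called. Cyp2b10, the classical CAR target, rose by 3.18 ± 0.97 and 4.10 ± 0.97 in those comparisons. Cyp3a11, a main PXR target, rose by 1.07 ± 0.28 on chow, but on AMLN diet it averaged 16.54 in LiFKO and 16.91 in Control. Cyp2c29 fell in both, at -1.72 ± 0.38 and -3.10 ± 0.38, and so did Aldh1a1, at -1.5 ± 0.22 and -1.98 ± 0.22. In AMLN Control against chow Control 0 of these targets rose and 6 fell, where 11.6% of all genes were called lower.

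Other male-biased liver genes showed falls in the comparisons in which Slco1a1 was low. Of 24 measured, 11 fell and 3 rose in chow LiFKO, where 13.2% of all genes were called lower and 25.7% in either direction. In AMLN Control against chow Control 11 fell and 0 rose, where these shares were 11.6% and 22.8%. Hsd3b5, a steroid-metabolising enzyme, was at -6.06 ± 1.45 and -5.79 ± 1.45 in these comparisons (limma adjusted p = 0.00658 and 0.0117), Mup7, a urinary pheromone carrier, at -3.10 ± 0.96 and -3.86 ± 0.96, and Gstp1, a glutathione transferase, at -0.92 ± 0.18 and -1.2 ± 0.18. Cyp4a12a and Cyp4a12b, fatty acid hydroxylases, rose in chow LiFKO by 1.24 ± 0.25 and 1.62 ± 0.24. The 2 comparisons share the chow Control libraries. In AMLN LiFKO against AMLN Control, where Slco1a1 differed by 0.21 ± 0.91, 4 of the 24 fell and 3 rose, beside 19.7% of all genes called. Their median difference there was -0.47, beside -0.02 over all genes. In AMLN DKO against AMLN Control, where Slco1a1 differed by 1.5 ± 0.91, 0 of the 24 were called, beside 0.651% of all genes. The median there was -0.36, beside 0.01 over all genes. Within groups the mean log2 level of the 24 genes was highest in the library with the highest Slco1a1 in AMLN Control (replicate 3, 14.38, against 13.27 and 12.89 in replicates 1 and 2), and lowest in the library with the lowest Slco1a1 in chow LiFKO (replicate 2, 13.16, against 14.30 and 13.86 in replicates 1 and 3). It was 12.94 to 13.22 in AMLN DKO, 12.71 to 13.18 in AMLN LiFKO and 14.68 to 15.03 in chow Control. Called female-biased genes mostly went the other way from Slco1a4. Of 19 measured, 2 rose and 7 fell in chow LiFKO, where 25.7% of all genes were called in either direction. In AMLN LiFKO 3 rose and 7 fell, where 19.7% of all genes were called. Sult1e1, the estrogen sulfotransferase, was at 6.69 ± 0.65 and 4.06 ± 0.65 in these comparisons. The cytochrome gene Cyp2b9 was at -2.41 ± 0.61 and -4.41 ± 0.61. The median difference of the 19 genes was 0.45 in chow LiFKO, opposite in sign to the balance of its calls, and -0.51 in AMLN LiFKO, beside -0.05 and -0.02 over all genes. In AMLN Control against chow Control, where Slco1a4 was lower, 6 of the 19 rose and 3 fell, beside 22.8% of all genes called. The median there was -0.13, beside -0.04 over all genes. A further list held 10 measured growth hormone signal genes and regulators of sex bias. Of these 1 fell and 0 rose in chow LiFKO (Trim24, -1.32 ± 0.14), beside 25.7% of all genes called in either direction. In AMLN LiFKO 3 rose and 1 fell, beside 19.7% of all genes called. Among those that rose were Ghr, the growth hormone receptor, by 0.46 ± 0.09 and Stat5b by 0.38 ± 0.08.

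Of 12 measured prostaglandin genes 2 rose and 0 fell in chow LiFKO, a share below the 25.7% of all genes called in either direction. These were the prostaglandin E synthase gene Ptges2, by 0.76 ± 0.10 (limma adjusted p = 9.39e-05), and Ptgr1, which reduces prostaglandin metabolites, by 0.63 ± 0.21. In AMLN Control against chow Control 1 rose, Hpgds, a prostaglandin D synthase, by 1.03 ± 0.31 (limma adjusted p = 0.027), and 0 fell. That share was below the 22.8% of all genes called in either direction. Ptgds, the other prostaglandin D synthase, rose by 3.37 ± 0.67 in AMLN LiFKO. There 2 of the 12 rose and 0 fell, beside 19.7% of all genes called in either direction.

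Genes with the most similar pattern to each member were ranked by Pearson r over the 15 libraries, which share group effects. Slco1a1 was nearest to Zfp68 (r = 0.90), Hsd3b2 (0.888) and Gapdhs (0.876), and Slco1a4 to Slc8a3 (0.936), AI317395 (0.931) and D7Ertd443e (0.925). Slco1b2 was nearest to Wwp1 (0.888), Mtpn (0.872) and Angptl6 (0.867). Slco2a1 was nearest to Ces2a (0.948), Cyp2c54 (0.939) and Ttc39b (0.927), and Slco2b1 to Smoc1 (0.936), Cml3 (0.926) and Hsf4 (0.922). Hsd3b2 averaged 9.87 in chow LiFKO and 12.30 in chow Control, and D7Ertd443e 8.77 in AMLN LiFKO and 2.35 in AMLN Control. Ces2a, a carboxylesterase, averaged 13.51 in chow LiFKO, 13.14 in AMLN Control and 14.52 in chow Control.

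In the deposited TFE3 peak lists 2 to 5 of the 5 members had a site. A gene was counted as having a peak when one lay in it or within 10 kb. In chow LiFKO 4 of 5 members had a TFE3 peak and 73.8% of all genes did, and in chow Control 4 of 5 members and 48.2% of all genes did; Slco1a1 was the member without one in both. On FPC diet the members with a peak were 4 in LiFKO+1c (79.8% of all genes), 2 in Control+1c (43.7%), 5 in LiFKO (71.7%) and 3 in Control (41.6%). The HA lists, which mark nSREBP-1c, had a peak at 1 member, Slco2b1, in LiFKO+1c (7.24% of all genes) and in Control+1c (9.39%). Slco1a5 and Slco3a1 had 0 peaks in all 8 lists. The members span 39681 to 79363 bases and the median gene of the table spans 19608, and a longer gene catches a peak more often. Each list pools libraries, so no spread between mice can be given, and the lists differ in length (26445 peaks in chow LiFKO, 11385 in chow Control). Per the file headers, the FPC TFE3 lists of LiFKO, Control+1c and Control each pool a library named input with 2 named TFE3 and call them over a library named TFE3, and the HA LiFKO+1c list pools a library named TFE3 with 2 named HA. The FPC values are given with that limit.

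In the 2 chow lists the site with the highest score at these genes lay past the end of Slco2a1, 2488 bases from it in chow LiFKO. Its HOMER score, the authors' value for each peak, was 104.3 in chow LiFKO, rank 40 of 26445, and 50.9 in chow Control, rank 133 of 11385 (mm9 chr9:102992506-102992948 over 5 lists). It was absent from FPC Control+1c, and in the FPC lists of LiFKO+1c, LiFKO and Control it scored 31.7, 24.0 and 10.8, below the Slco2b1 site described next, at 61.7, 44.0 and 19.6. Peaks with their centre at -638 to -674 bases from the Slco2a1 start appeared in the 3 LiFKO lists, and chow LiFKO had a further one with its centre 12 bases after the start, score 10.9. None of the Control lists held a peak at those places. A site with its centre 40552 to 40685 bases after the start was in all 6 TFE3 lists.

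Slco2b1 held the site found in all 8 lists, 17137 to 17232 bases after its start (mm9 chr7:106842525-106842801). Its score was 59.5 in chow LiFKO, rank 568, and 33.7 in chow Control, rank 700. In the HA lists it was 6.75 in LiFKO+1c, rank 603 of 1367, and 6.53 in Control+1c, rank 814 of 1702. Slco1b2 had a peak over its start in chow LiFKO (score 14.6) and FPC LiFKO (score 7.72), and its strongest nearby site, at -18473 bases from the start in chow LiFKO and so outside 10 kb, was in all 6 TFE3 lists with a score of 35.1 in chow LiFKO and 23.7 in chow Control.

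In the stretch between the start of Slco1a4 and the end of Slco1a1 the peaks lay nearer to Slco1a4. Slco1a4 had sites at -1720 and -10041 bases from its start in chow LiFKO, with scores of 22.5 and 25.4, which were also in chow Control, with scores of 14.3 and 14.9. A site at -12831 was in all 6 TFE3 lists. A site 9152 bases after the Slco1a4 start was in the 3 LiFKO lists, with a score of 8.72 in chow LiFKO. Slco1a1 had a single site within 10 kb, at -907 bases from its start in FPC LiFKO, with a score of 4.08 at rank 27118 of 27751. A site at -13716 bases from the Slco1a1 start in chow LiFKO was in 6 of the 8 lists, with scores of 24.5 in chow LiFKO and 16.2 in chow Control. Scores were not compared between lists. Of the 96 sites in the authors' deposited differential list of LiFKO+1c over LiFKO, 0 lay within 50 kb of an Slco gene.

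**Figure D4:**
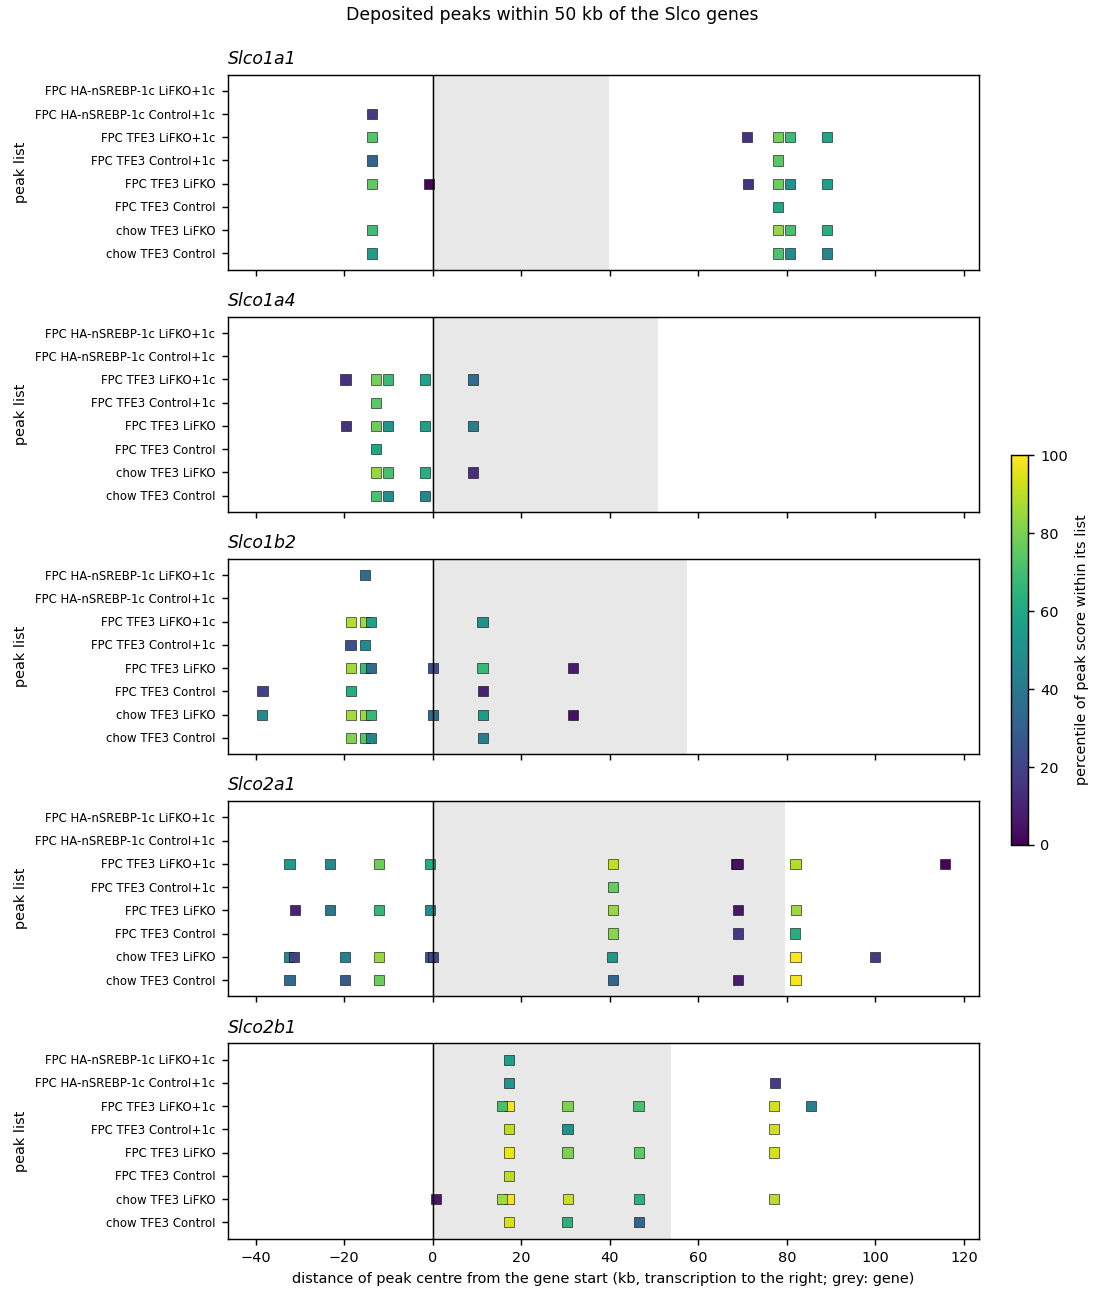
Deposited peaks within 50 kb of each Slco gene by distance from the gene start (x axis, kb) in 8 pooled peak lists (y axis); grey marks the gene and colour the percentile of the peak's score within its list. The site 17137 to 17232 bases into Slco2b1 appears in all 8 lists, and the site past the end of Slco2a1 in 5.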

How the data were processed

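The authors' deposited expression table holds log2 values of 13815 genes in 15 libraries with nearly equal distributions (quantile normalized); the submitters' processing notes name build mm9, STAR 2.6.0c, featureCounts and limma. No counts were used, so RNA depth is unknown. The authors also deposited a log2 fold change for 96 differential sites, used here only for position. Peak lists deposited by the authors carry a HOMER score per peak of pooled libraries, per the file headers. Members and 18 gene lists were chosen with earlier results of these data known.

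All genes were fitted with limma 3.58.1 in R 4.3.3: 1 mean per group, 10 residual degrees of freedom, eBayes with trend, two-sided, Benjamini-Hochberg adjusted p under 0.05 over 13815 genes in each of 7 comparisons. Named list genes were among the 4 with the smallest p per list and comparison, or chosen after their values were seen. Same-numbered chow LiFKO and Control libraries had residual correlations of 0.113, 0.17 and 0.237, so a blocked chow fit was added. In other comparisons some pair was under 0.1. Per-sample columns of the differential list (6) were not used. Promoters were read from the RefSeq table of GRCm38.p6, whose starts were not matched to the mm9 peaks. The limma script was tested on simulated data.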

Additional observations from a re-analysis of the deposited data

Results flagged for a closer look

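The LiFKO effect (LiFKO minus Control) differed between AMLN diet and chow, by limma's test of that difference, in 7 listed genes and in none of the 3 tested Slco members. Over all genes that test called 144, or 1.04%. This total ranged from 27 to 334 with 1 library left out and was 72 without the trend. The 7 genes were not followed through those settings, and their lists were chosen with earlier results of these data known. Abcg2, an export pump, differed by -0.76 ± 0.14 (adjusted p = 0.0231), with LiFKO effects of 0.46 on AMLN diet and 1.22 on chow. The bile acid receptor gene Nr1h4 differed by 0.67 ± 0.13 (adjusted p = 0.0304), with effects of 0.09 and -0.58. Nr1i3, which encodes CAR, differed by 1.10 ± 0.24 (adjusted p = 0.045), with effects of 0.34 and -0.76. Among female-biased genes the difference was -6.85 ± 0.95 for Cyp2b13 (adjusted p = 0.00763), -4.65 ± 0.71 for Ntrk2 (adjusted p = 0.0118) and -2.41 ± 0.52 for Cyp17a1 (adjusted p = 0.0441). The LiFKO effects of Cyp2b13 were -5.02 on AMLN diet and 1.82 on chow, where it was not called. Its AMLN LiFKO mean of 1.86 is near the bottom of the table, so the size of its difference is uncertain. Gpnmb, a lysosomal gene, differed by -5.64 ± 0.97 (adjusted p = 0.0203), with effects of -1.23 on AMLN diet and 4.41 on chow.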

How the results depend on the processing

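Leaving out 1 library at a time, 300 of 315 values of the 3 tested members kept their direction and side of the threshold, and under the other settings 107 of 108 did. For Slco1a1 and Slco1a4, described without a test, 206 of 210 and 72 of 72 values kept their direction. For members with a change, the differences without 1 library ranged as follows. Slco1a1 ranged from -0.58 to 1.40 in AMLN LiFKO against Control and from -0.24 to 1.17 in AMLN against chow LiFKO. Slco1b2 ranged from -0.18 to 0.12 in AMLN against chow Control, and from 0.61 to 0.70 in AMLN against chow LiFKO, where its call was lost. Slco2a1 ranged from -0.53 to 0.06 in AMLN LiFKO against Control, from -0.32 to 0.26 in DKO against LiFKO and from 1.08 to 1.67 for the difference between LiFKO effects. Slco2b1 ranged from 0.20 to 0.27 in chow LiFKO against Control, passing without DKO replicate 1 (adjusted p = 0.0386), and from -0.37 to -0.16 in DKO against LiFKO. Genes called ranged from 1938 to 3353 in AMLN against chow Control, 175 to 664 in AMLN against chow LiFKO, 991 to 1661 in DKO against LiFKO, 24 to 231 in DKO against Control and 27 to 334 for the difference between LiFKO effects (3154, 517, 1523, 90 and 144 with all libraries). The replicate block left the Slco2a1 difference between LiFKO effects at 1.35 but past the threshold. The block limited to chow libraries, added after the data were seen, gave 3763 genes called against 3545 and changed no member's call. Without the trend 30 genes were called in DKO against Control and 72 for the difference between LiFKO effects; with only the compared groups fitted, 15 in DKO against Control and 215 in AMLN against chow LiFKO. Causes of these changes were not tested. Within 50 kb 2 members had an HA peak in each HA list and 5 a TFE3 peak in FPC Control and FPC Control+1c; with peaks at or above the median score 2 had one in FPC Control and in chow Control. CANNTG in place of CACGTG matched all 5 members. Assignment to a named nearest gene was not run, since the 8 lists name no gene, and protein identity was not analysed here. RNA depth is unknown, and 3 libraries per group limit the precision.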
